A study of Sus scrofa with 4 samples.

Results

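The genes of bone morphogenetic protein (BMP) and transforming growth factor beta (TGF-beta) signalling were followed in lung cells sorted from pigs of the genotype LGR5-H2B-GFP knock-in. The set was chosen by name and holds 52 of the 29263 genes in the count tables: 15 ligand genes, 10 type I and type II receptors, 2 co-receptors, 1 pseudoreceptor, 12 extracellular antagonists and binding proteins, 8 SMADs and 4 ID genes. All 52 were found, 51 by symbol and GDF11 through its Ensembl identifier, ENSSSCG00000000363.

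RNA sequencing was performed on 4 libraries of lung cells, 2 sorted as GFP-HI and 2 as GFP-NEG, each labelled biological replicate 1 or 2. Cells of both groups came from animals with the same allele. It places a reporter, histone H2B joined to green fluorescent protein (GFP), under the control of LGR5, a gene for a receptor of the R-spondins that amplify Wnt signalling. GFP-NEG is thus the non-fluorescent fraction of the same reporter tissue and not tissue without the reporter. A histone-bound fluorophore can outlast transcription of its gene, so GFP-HI can include cells that no longer transcribe LGR5. The protocol covers both adult and fetal lung and names antibodies against EPCAM and NGFR without saying which apply here. The name of the deposited comparison table contains the words adult pig, and sex and exact age are not given in the sources used here.

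BMPs and TGF-betas are secreted dimers of one protein superfamily. A ligand brings a type II receptor kinase to a type I receptor kinase, which phosphorylates SMAD1, SMAD5 and SMAD9 on the BMP side or SMAD2 and SMAD3 on the TGF-beta and activin side. These join SMAD4 and enter the nucleus, where the ID genes are well known BMP targets and SMAD6 and SMAD7 feed back as inhibitors. Outside the cell, antagonists such as noggin, chordin and gremlin hold BMPs, follistatins hold activins, and latent TGF-beta binding proteins tether inactive TGF-beta to the matrix. In the lung the pathways are known for roles in branching, fibroblast matrix production and vascular integrity.

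GFP-HI replicates 1 and 2 held 24200550 and 24689986 counts and GFP-NEG replicates 1 and 2 held 6292253 and 7045652, so GFP-HI was 3.67 times as deep on average. LGR5 was at 146 and 152 CPM (counts scaled to library totals with edgeR's TMM factors) in GFP-HI replicates 1 and 2 and at 1.55 and 0.767 CPM in GFP-NEG replicates 1 and 2. Of 14 fibroblast markers, 13 were in the files, and 10 of these were higher in GFP-HI. Their summed level was 90095 and 86198 CPM in GFP-HI, 27092 CPM in GFP-NEG replicate 1 and 9664 CPM in GFP-NEG replicate 2. Over all genes tested, 8.35% were higher and 27.6% lower in GFP-HI. Other markers stood higher in GFP-NEG: 11 of 15 immune, 9 of 12 endothelial and 9 of 10 chondrocyte markers were lower in GFP-HI. Of 16 epithelial markers 5 were lower, near the share of all genes. The epithelial markers summed to 421 and 468 CPM in GFP-HI against 976 and 322 CPM in GFP-NEG. The chondrocyte markers summed to 8087 CPM in GFP-NEG replicate 1 and 1040.2 CPM in replicate 2, against 426 and 311 CPM in GFP-HI. Of the smooth muscle and pericyte markers, 2 were higher and 4 lower among 12, and their sum was 2479 and 2862 CPM in GFP-HI against 2853 and 433 CPM in GFP-NEG. The 3 mesothelial markers in the files summed to at most 3.62 CPM in any library. Of 5 Schwann and neural markers in the files, CDH19 was at 0 in all 4 libraries, and the list summed to at most 16.1 CPM.

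Each gene was compared between GFP-HI and GFP-NEG with edgeR's quasi-likelihood test, fitted over all 19682 genes that passed the filter on low counts. A gene was called higher or lower at a Benjamini-Hochberg adjusted p under 0.05 over all genes tested. Fold changes are GFP-HI over GFP-NEG on the log2 scale and are given with their standard error (SE). CPM is not divided by transcript length, so levels are compared between libraries within a gene and not between genes. In RNA from sorted pools, fewer cells of a type and less RNA per cell cannot be told apart. The sample labels say biological replicate and do not name the animals. The SEs and p-values rest on spread between these 4 libraries that is pooled over genes. They do not measure the scatter of the single gene.

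Of the 52 genes, 50 were tested; INHBA and NOG had too few counts. BMP4, BMP5, BMP7, TGFB2, TGFB3, all 4 latent TGF-beta binding proteins and the receptors BMPR1A, ACVR1, ACVR2A and TGFBR3 were among the 18 genes higher in GFP-HI. TGFB1, GREM1, BMPER, BMPR1B, GDF6 and ID2 were the 6 genes lower there. BMPER had overlapping groups and opposite signs in the replicates. BMPR1B and GDF6 passed the filter on low counts only through GFP-NEG, so their calls are descriptions. Over all genes tested, 2078 had 0 counts in both GFP-HI libraries and 2 had 0 counts in both GFP-NEG libraries. None of the 8 SMAD genes was called in edgeR or in DESeq2, and 2 of them, SMAD5 and SMAD9, had an unadjusted edgeR p under 0.05. Over all genes tested, 8.35% were called higher and 27.6% lower in GFP-HI. Among the 9246 genes with a symbol and a mean of at least 10 CPM, these shares were 15.1% and 10.1%. The median log2 fold change was 1.02 over the 50 genes and -0.25 over all genes tested. The groups did not overlap for 35 of the 50, with GFP-HI above for 28 and below for 7, against 27.7% and 42% (69.7% in either direction) of all genes tested. Since these genes were chosen by name with earlier results of the data known, the counts are descriptions. The difference had the same sign in both replicates for 42 of 50, against 79.9% of all genes tested. Together the genes took 1.44% and 1.09% of all counts in GFP-HI; their share in GFP-NEG was 0.588% and 0.28%.

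**Figure D1:**
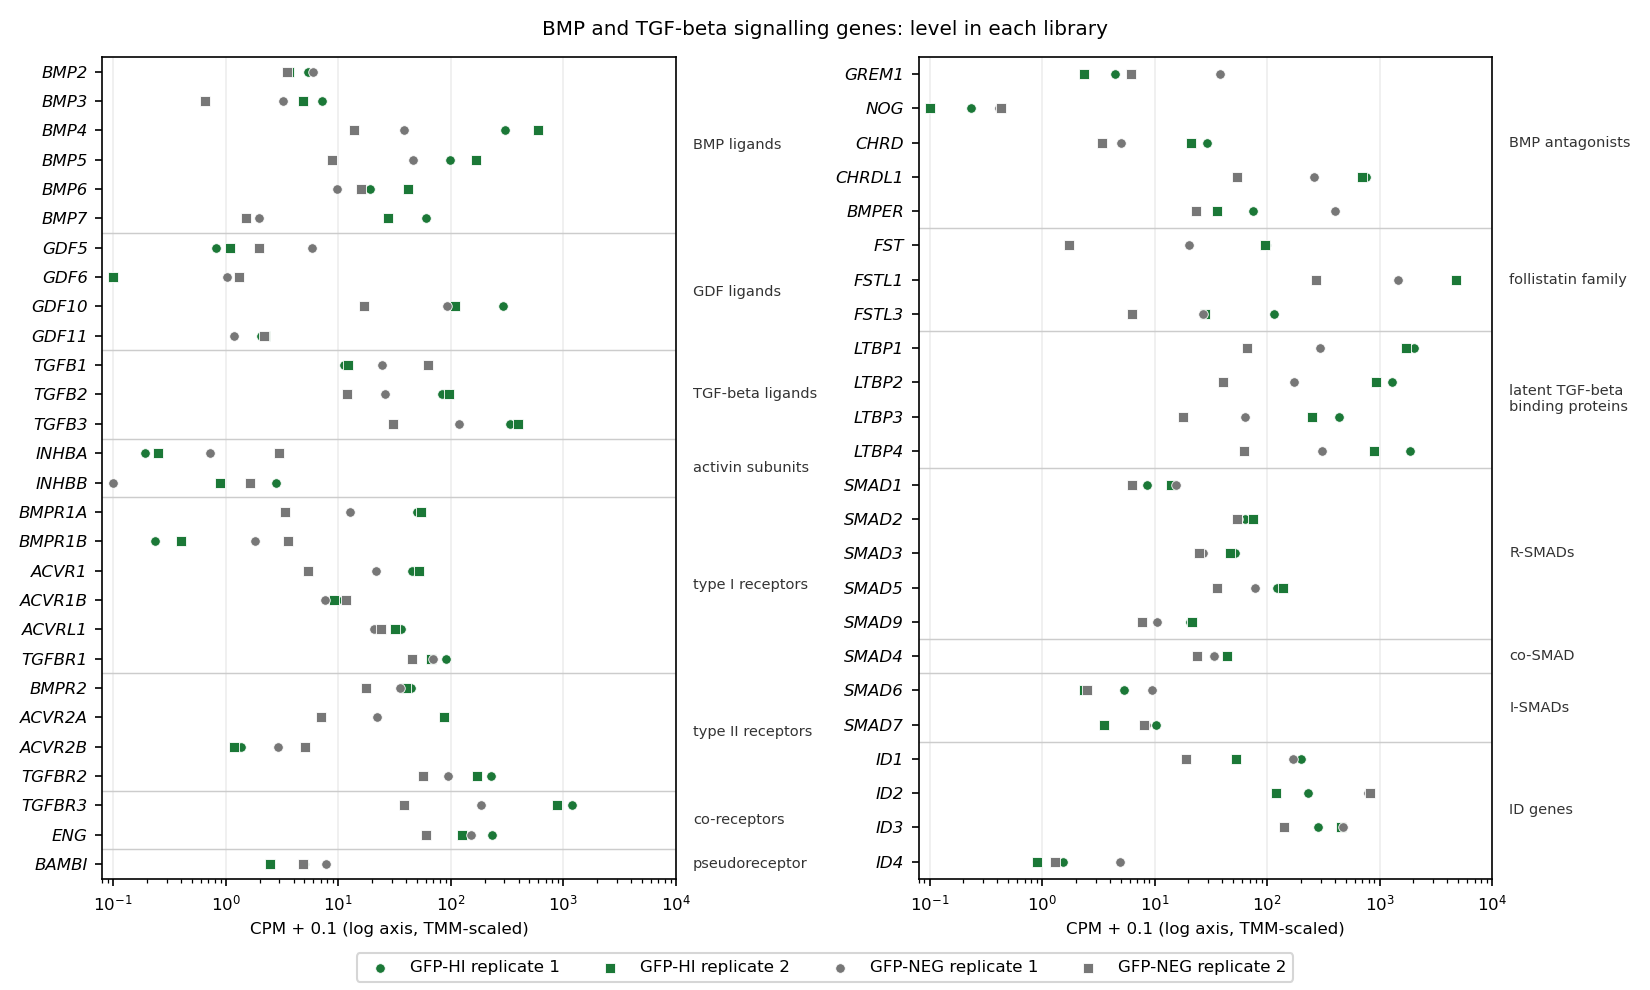
Level of each of the 52 genes in each library, as CPM + 0.1 on a log axis, grouped by role. Green marks GFP-HI and grey GFP-NEG, circles replicate 1 and squares replicate 2. The 4 latent TGF-beta binding proteins have both green points right of both grey points, the points of SMAD2 and SMAD3 lie closer together than those of the binding proteins, and GFP-NEG replicate 1 is right of GFP-NEG replicate 2 for 40 of the 50 genes tested.

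Among the BMP ligands, 3 of 6 were higher in GFP-HI. BMP4, a ligand of lung mesenchyme and distal epithelium, was at 305 and 598 CPM in GFP-HI replicates 1 and 2 and at 38.0 and 13.8 CPM in GFP-NEG replicates 1 and 2. Both GFP-HI libraries lay far above both GFP-NEG libraries, with a log2 fold change of 4.12 (SE 0.72, edgeR adjusted p of 6.7e-07). BMP7, a ligand related to BMP5 and BMP6, was at 60.4 and 27.3 CPM in GFP-HI and at 1.86 and 1.43 CPM in GFP-NEG. It was near the lower end of detection in GFP-NEG, at 12 and 13 counts, and the log2 fold change was 4.74 (SE 0.66, edgeR adjusted p of 2.2e-10). BMP5 was at 99.2 and 167 CPM in GFP-HI and at 45.6 and 8.66 CPM in GFP-NEG. On a log scale GFP-NEG replicate 1 stood closer to the GFP-HI libraries than to GFP-NEG replicate 2, and the log2 fold change was 2.30 (SE 0.56, edgeR adjusted p of 2.8e-04).

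BMP7 differed from the other 17 higher genes in one respect. Its difference was larger in replicate 1 (4.69 in log2 of CPM + 0.5) than in replicate 2 (3.85). In those 17, the difference was larger in replicate 2, where GFP-NEG was lower. BMP4 differed by 2.99 within replicate 1 and 5.39 within replicate 2. The other BMP ligands did not pass the test. BMP6, a ligand of endothelium in many tissues, was at 19.1 and 41.3 CPM in GFP-HI and at 9.63 and 15.9 CPM in GFP-NEG. Its groups did not overlap, and the difference of 1.24 on the log2 scale (SE 0.56) had an edgeR adjusted p of 0.070. BMP3, which can oppose other BMPs, was at 7.11 and 4.71 CPM against 3.11 and 0.548 CPM (edgeR adjusted p of 0.18). BMP2 stood between 3.40 and 5.90 CPM in all 4 libraries, and its groups overlapped.

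The growth differentiation factor (GDF) ligands went in both directions. GDF10, also known as BMP3B, was at 292 and 109.7 CPM in GFP-HI and at 92.7 and 16.7 CPM in GFP-NEG. The lower GFP-HI library was only just above the higher GFP-NEG library, and the log2 fold change was 1.88 (SE 0.59, edgeR adjusted p of 0.0059). GDF6, known from joint and skeletal development, had 0 counts in both GFP-HI libraries, and the GFP-NEG libraries held 6 and 11 counts, or 0.932 and 1.21 CPM. It passed the filter on low counts only through GFP-NEG and so could hardly have been called higher. Its call as lower (edgeR adjusted p of 4.9e-04) is therefore a description. Against a floor of 3 counts per library, it was at least 6.26-fold lower in GFP-HI. With the replicate number as a block its edgeR adjusted p was 0.0499. GDF5, a close relative of GDF6, was at 0.725 and 0.991 CPM in GFP-HI and at 5.74 and 1.86 CPM in GFP-NEG, and did not pass (edgeR adjusted p of 0.16). In both of these genes all 4 values were low, and the chondrocyte markers given above were also higher in GFP-NEG. Those markers and GDF5 were higher in GFP-NEG replicate 1 than in replicate 2, while GDF6 was slightly lower in replicate 1. The part of chondrocytes in the GDF5 and GDF6 values was not tested. GDF11 stood between 1.09 and 2.13 CPM in the 4 libraries, with overlapping groups.

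The 3 TGF-beta ligands were all called, and they split. TGFB2 was at 83.1 and 96.4 CPM in GFP-HI and at 25.9 and 11.8 CPM in GFP-NEG, for a log2 fold change of 2.25 (SE 0.54, edgeR adjusted p of 2.2e-04). TGFB3 was at 333 and 399 CPM in GFP-HI and at 119 and 30.8 CPM in GFP-NEG, for a log2 fold change of 2.29 (SE 0.66, edgeR adjusted p of 0.0023). In both genes the GFP-HI libraries agreed closely and lay above both GFP-NEG libraries. TGFB1, the isoform made in large amounts by leukocytes and platelets, ran the other way. Its level was 11.06 and 12.2 CPM in GFP-HI and 24.5 and 63.3 CPM in GFP-NEG, for a log2 fold change of -1.92 (SE 0.55, edgeR adjusted p of 0.0021). The highest value was in GFP-NEG replicate 2, the library with the most immune signal. Immune markers summed to 3082 CPM there, 2172 CPM in GFP-NEG replicate 1 and 354 and 568 CPM in GFP-HI, and their part in the TGFB1 difference was not tested.

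The activin subunit genes were scarce. INHBA had between 2 and 26 counts in a library and was not tested. INHBB had 59 and 16 counts in the GFP-HI libraries, with 0 and 14 in GFP-NEG. Its difference changed sign between replicates, and it was not called (edgeR adjusted p of 0.53).

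**Figure D2:**
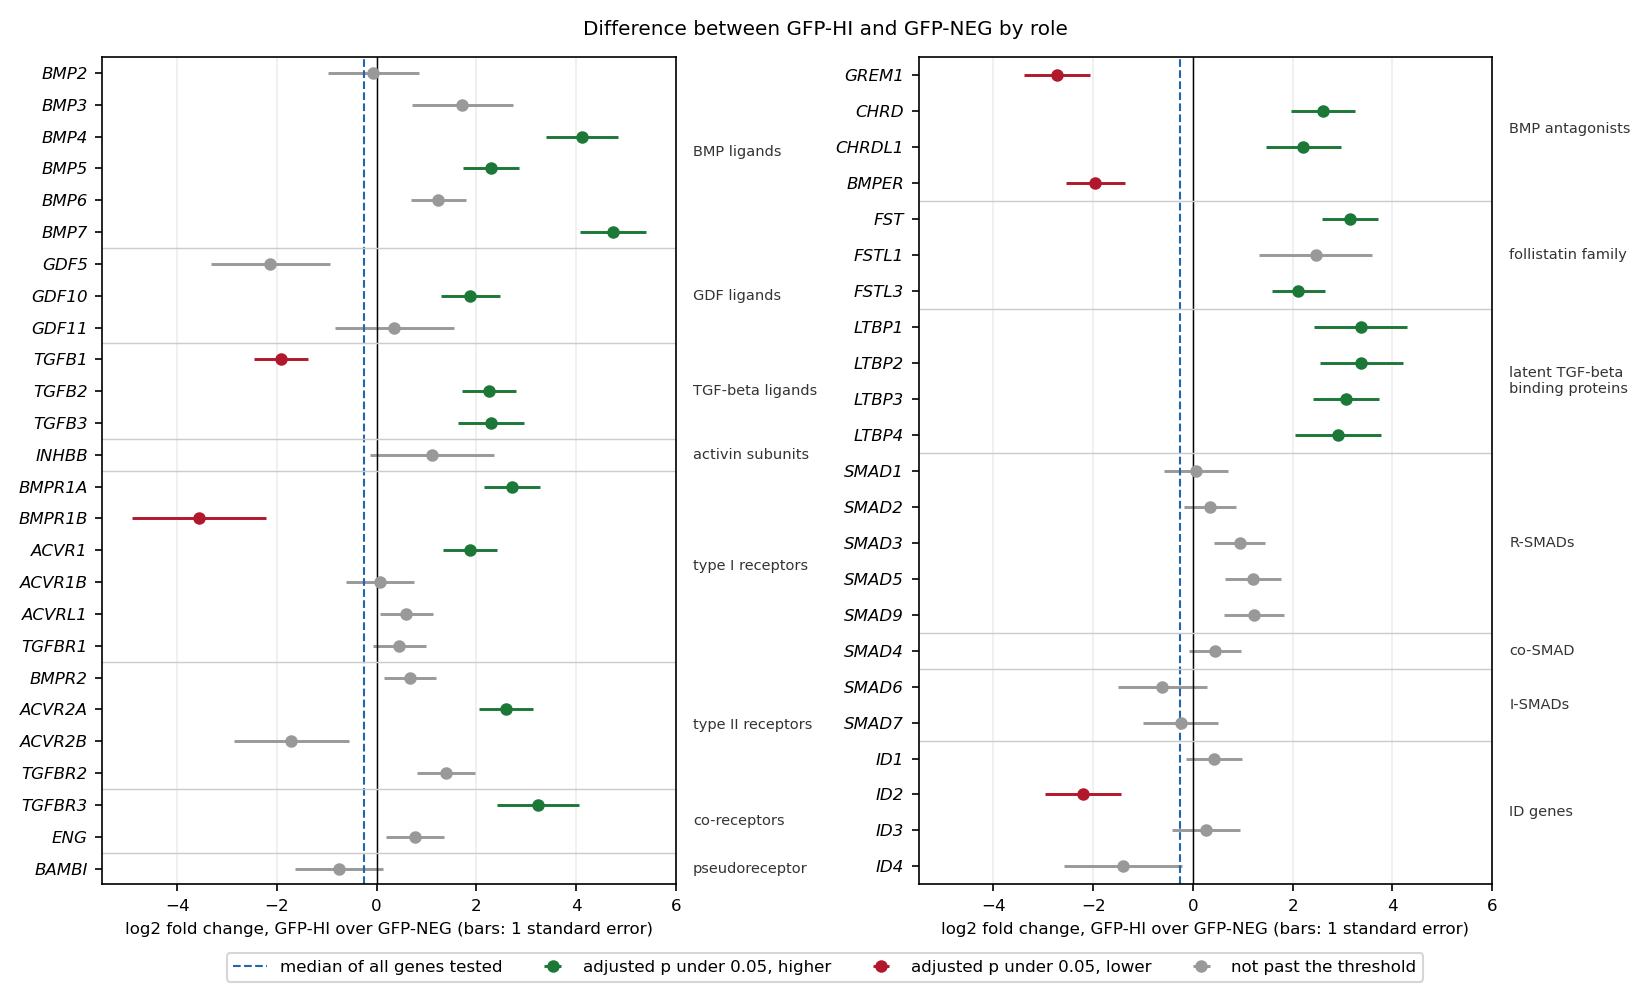
Log2 fold change of GFP-HI over GFP-NEG for 49 of the 50 genes tested, by role, with bars of 1 standard error. Green is higher and red lower at an edgeR adjusted p under 0.05, grey did not pass, and the dashed line is the median of all genes tested, -0.25. GDF6 is left out because it had 0 counts in GFP-HI, and the SMADs lie between -0.62 and 1.22 with 0 called.

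Of the 6 type I receptors, 2 were higher and 1 was lower in GFP-HI. BMPR1A, a principal type I receptor for BMP2 and BMP4, was at 49.8 and 53.9 CPM in GFP-HI and at 12.6 and 3.29 CPM in GFP-NEG. The GFP-HI libraries were nearly equal and clear of both GFP-NEG libraries, with a log2 fold change of 2.72 (SE 0.56, edgeR adjusted p of 3.2e-05). ACVR1, also called ALK2, which takes part in signalling by BMP6 and BMP7, was at 45.4 and 52.5 CPM in GFP-HI and at 21.7 and 5.26 CPM in GFP-NEG. Its log2 fold change was 1.87 (SE 0.54, edgeR adjusted p of 0.0025). BMPR1B, the type I receptor through which GDF5 is known to act, had 3 and 6 counts in the GFP-HI libraries, with 11 and 32 in GFP-NEG. Its log2 fold change was -3.55 (SE 1.34). BMPR1B passed the filter on low counts only through GFP-NEG and so could hardly have been called higher. The call as lower (edgeR adjusted p of 0.026) was lost with the replicate number as a block (edgeR adjusted p of 0.074), without a filter on low counts and with any 1 library left out.

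The remaining type I receptors did not pass. TGFBR1, the type I receptor for TGF-beta, was at 90.8 and 66.6 CPM in GFP-HI and at 69.4 and 45.3 CPM in GFP-NEG, and the groups overlapped. ACVRL1, or ALK1, a receptor best known from endothelium, was at 36.0 and 31.6 CPM in GFP-HI and at 20.8 and 24.0 CPM in GFP-NEG. The groups did not overlap, with GFP-HI above, and the log2 fold change of 0.59 (SE 0.53) did not pass, while 9 of 12 endothelial markers were lower in GFP-HI. ACVR1B, an activin receptor, stood between 7.45 and 11.6 CPM with overlapping groups.

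Of the 4 type II receptors, only ACVR2A was called. This receptor for activins and some BMPs was at 87.3 and 87.0 CPM in GFP-HI and at 22.0 and 6.91 CPM in GFP-NEG, for a log2 fold change of 2.60 (SE 0.55, edgeR adjusted p of 4.4e-05). ACVR2B, its paralog, was at 1.27 and 1.09 CPM in GFP-HI and at 2.79 and 4.93 CPM in GFP-NEG, and its log2 fold change of -1.71 (SE 1.15) did not pass. TGFBR2, the type II receptor for TGF-beta, was at 229 and 169 CPM in GFP-HI and at 94.9 and 57.0 CPM in GFP-NEG. Its groups did not overlap, but the log2 fold change of 1.39 (SE 0.59) had an edgeR adjusted p of 0.0505. The authors' deposited table gives it an adjusted p of 0.030. BMPR2, the main type II receptor for BMPs, was at 43.9 and 39.6 CPM in GFP-HI and at 35.4 and 17.4 CPM in GFP-NEG, for a log2 fold change of 0.66 (SE 0.52, edgeR adjusted p of 0.34).

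The co-receptors differed in call. TGFBR3, or betaglycan, which presents TGF-beta, TGFB2 above all, to the signalling receptors, was at 1199.5 and 887 CPM in GFP-HI and at 184 and 38.0 CPM in GFP-NEG. Both GFP-HI libraries lay well above both GFP-NEG libraries, and the log2 fold change was 3.23 (SE 0.82, edgeR adjusted p of 4.6e-04). ENG, or endoglin, an endothelial co-receptor also found on stromal cells, was at 234 and 126 CPM in GFP-HI and at 151 and 59.9 CPM in GFP-NEG, with overlapping groups and an edgeR adjusted p of 0.32. BAMBI, a receptor decoy without a kinase domain, stood between 2.38 and 7.61 CPM with overlapping groups.

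Of the 4 tested BMP antagonists and modulators, 2 were called higher and 2 lower in GFP-HI. The lower call of BMPER rested on GFP-NEG replicate 1, as given below. CHRDL1, a chordin-like BMP antagonist, was at 764 and 701 CPM in GFP-HI and at 261 and 53.8 CPM in GFP-NEG, for a log2 fold change of 2.22 (SE 0.75, edgeR adjusted p of 0.011). CHRD, chordin itself, was at 29.1 and 21.1 CPM in GFP-HI and at 4.97 and 3.29 CPM in GFP-NEG. It had one of the most even differences, 2.44 within replicate 1 and 2.51 within replicate 2, with a log2 fold change of 2.61 (SE 0.64, edgeR adjusted p of 3.0e-04). NOG, noggin, had at most 3 counts in any library and was not tested.

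GREM1, gremlin 1, a secreted inhibitor of BMP2, BMP4 and BMP7, was at 4.39 and 2.28 CPM in GFP-HI and at 38.4 and 6.03 CPM in GFP-NEG. Most of its signal was in GFP-NEG replicate 1, and it was lower in GFP-HI, with a log2 fold change of -2.72 (SE 0.66, edgeR adjusted p of 2.4e-04). Without that library the log2 fold change was -0.80 (edgeR adjusted p of 0.59). BMPER, a chordin-related modulator of BMP4 known from endothelium, was at 74.6 and 35.4 CPM in GFP-HI and at 404 and 23.1 CPM in GFP-NEG. A single library, GFP-NEG replicate 1, held the high value, and GFP-NEG replicate 2 was the lowest of the 4. The call (log2 fold change -1.95, SE 0.60, edgeR adjusted p of 0.0044) turned to 1.30 without GFP-NEG replicate 1 (edgeR adjusted p of 0.18). With the replicate number as a block the edgeR adjusted p was 0.31. The DESeq2 adjusted p was 0.064, and the authors' deposited table gives 0.36. Chondrocyte markers (8087 against 1040.2 CPM) and smooth muscle and pericyte markers (2853 against 433 CPM) were also higher in GFP-NEG replicate 1 than in replicate 2. So were fibroblast markers (27092 against 9664 CPM). In GFP-HI the sums were 426 and 311 CPM for chondrocyte, 2479 and 2862 CPM for smooth muscle and pericyte, and 90095 and 86198 CPM for fibroblast markers. The part of these cell types in the GREM1 and BMPER values was not tested.

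All 3 follistatin family genes had positive fold changes, and 2 were called. FST, follistatin, which binds activins, was at 96.8 and 95.7 CPM in GFP-HI and at 20.3 and 1.64 CPM in GFP-NEG. The GFP-NEG libraries differed far more than the GFP-HI libraries, and the log2 fold change was 3.14 (SE 0.56, edgeR adjusted p of 1.2e-06), with 5.92 without GFP-NEG replicate 1 and 2.20 (edgeR adjusted p of 0.059) without GFP-NEG replicate 2. FSTL3, which also binds activins and myostatin, was at 115 and 27.9 CPM in GFP-HI and at 27.0 and 6.14 CPM in GFP-NEG. GFP-HI replicate 2 was barely above GFP-NEG replicate 1, but the difference was 2.07 and 2.10 within replicates 1 and 2, and the log2 fold change was 2.11 (SE 0.54, edgeR adjusted p of 4.7e-04). FSTL1, a secreted glycoprotein of mesenchymal cells, was at 4804 and 4759 CPM in GFP-HI and at 1464 and 272 CPM in GFP-NEG. Its groups were far apart, yet the log2 fold change of 2.46 (SE 1.13) did not pass (edgeR adjusted p of 0.077). It was called with the replicate number as a block (edgeR adjusted p of 0.0092) and in DESeq2, and the authors' deposited table gives an adjusted p of 0.0019.

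The latent TGF-beta binding proteins were the one group of 2 or more genes in which every member was called in the same direction. Over all genes tested, 8.35% were called higher, and 15.1% among genes with a symbol and a mean of at least 10 CPM. LTBP1, which binds the latent complex of all TGF-beta isoforms, was at 2005 and 1703 CPM in GFP-HI and at 293 and 65.6 CPM in GFP-NEG, for a log2 fold change of 3.37 (SE 0.93, edgeR adjusted p of 0.0015). LTBP2, which associates with fibrillin microfibrils and does not bind latent TGF-beta, was at 1284 and 927 CPM in GFP-HI and at 172 and 40.1 CPM in GFP-NEG. Its log2 fold change was 3.38 (SE 0.83, edgeR adjusted p of 3.2e-04). LTBP3 was at 435 and 249.8 CPM in GFP-HI and at 63.3 and 18.0 CPM in GFP-NEG, for a log2 fold change of 3.08 (SE 0.66, edgeR adjusted p of 6.3e-05). LTBP4, which also takes part in elastic fibre assembly in the lung, was at 1876 and 885 CPM in GFP-HI and at 306 and 61.8 CPM in GFP-NEG. Its log2 fold change was 2.91 (SE 0.86, edgeR adjusted p of 0.0033). In all 4 genes the lower GFP-HI library was above the higher GFP-NEG library, as in 27.7% of all genes tested. GFP-NEG replicate 1 was above GFP-NEG replicate 2 in each. Their calls were lost without GFP-NEG replicate 2. Relative to the fibroblast markers, as given below, LTBP1 stayed above and the groups overlapped for LTBP2, LTBP3 and LTBP4.

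The 5 receptor-regulated SMADs had positive fold changes of 0.06 to 1.22 on the log2 scale, and they did not pass. In SMAD2, SMAD3, SMAD5 and SMAD9 both GFP-HI libraries were above both GFP-NEG libraries. SMAD2, a transducer of TGF-beta and activin, was at 63.3 and 74.9 CPM in GFP-HI and at 55.0 and 53.8 CPM in GFP-NEG. SMAD3, the other TGF-beta SMAD, was at 51.2 and 46.7 CPM in GFP-HI and at 26.7 and 24.6 CPM in GFP-NEG, for a log2 fold change of 0.93 (SE 0.52, edgeR adjusted p of 0.16). Its difference was 0.93 and 0.92 within replicates 1 and 2, small and even. On the BMP side, SMAD5 was at 123 and 139.6 CPM in GFP-HI and at 78.4 and 35.6 CPM in GFP-NEG (log2 fold change 1.20, SE 0.55, edgeR adjusted p of 0.076). SMAD9 was at 20.8 and 21.4 CPM in GFP-HI and at 10.4 and 7.67 CPM in GFP-NEG (log2 fold change 1.22, SE 0.60, edgeR adjusted p of 0.10). SMAD1 was at 8.52 and 14.0 CPM in GFP-HI and at 15.5 and 6.14 CPM in GFP-NEG, with overlapping groups and opposite signs in the replicates.

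SMAD4, the partner shared by both branches, was at 33.7 and 44.2 CPM in GFP-HI and at 33.7 and 23.7 CPM in GFP-NEG. The log2 fold change of SMAD4 was 0.44 (SE 0.52), that of SMAD2 0.35 (SE 0.52) and that of SMAD1 0.06 (SE 0.65), and with library-size scaling SMAD1 and SMAD2 were at -0.31 and -0.091. SMAD1 was also negative with upper-quartile scaling (-0.21). The inhibitory SMADs were low. SMAD6, an inhibitor of BMP signalling, stood between 2.28 and 9.32 CPM, and SMAD7 between 3.47 and 10.2 CPM, both with overlapping groups. The 8 SMAD genes had SEs of 0.52 to 0.89, and the largest of their fold changes was 1.22 for SMAD9.

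The ID genes, which encode inhibitors of basic helix-loop-helix factors, gave 1 call in 4. ID2, which is also abundant in lymphocytes, was at 232 and 120.5 CPM in GFP-HI and at 796 and 829 CPM in GFP-NEG. The GFP-NEG libraries were nearly equal and above both GFP-HI libraries, and the log2 fold change was -2.20 (SE 0.76, edgeR adjusted p of 0.013). Immune markers, as given for TGFB1, were also higher in both GFP-NEG libraries, and their part in the ID2 difference was not tested. ID1 was at 199 and 52.7 CPM in GFP-HI and at 168 and 19.0 CPM in GFP-NEG. It was high in both replicate 1 libraries and low in both replicate 2 libraries, with overlapping groups (edgeR adjusted p of 0.59). ID3 was at 281 and 454 CPM in GFP-HI and at 474 and 139.99 CPM in GFP-NEG, with overlapping groups, and its log2 fold change of 0.26 (SE 0.68) was -0.093 with library-size scaling. ID4 stood between 0.793 and 4.81 CPM and was not called.

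**Figure D3:**
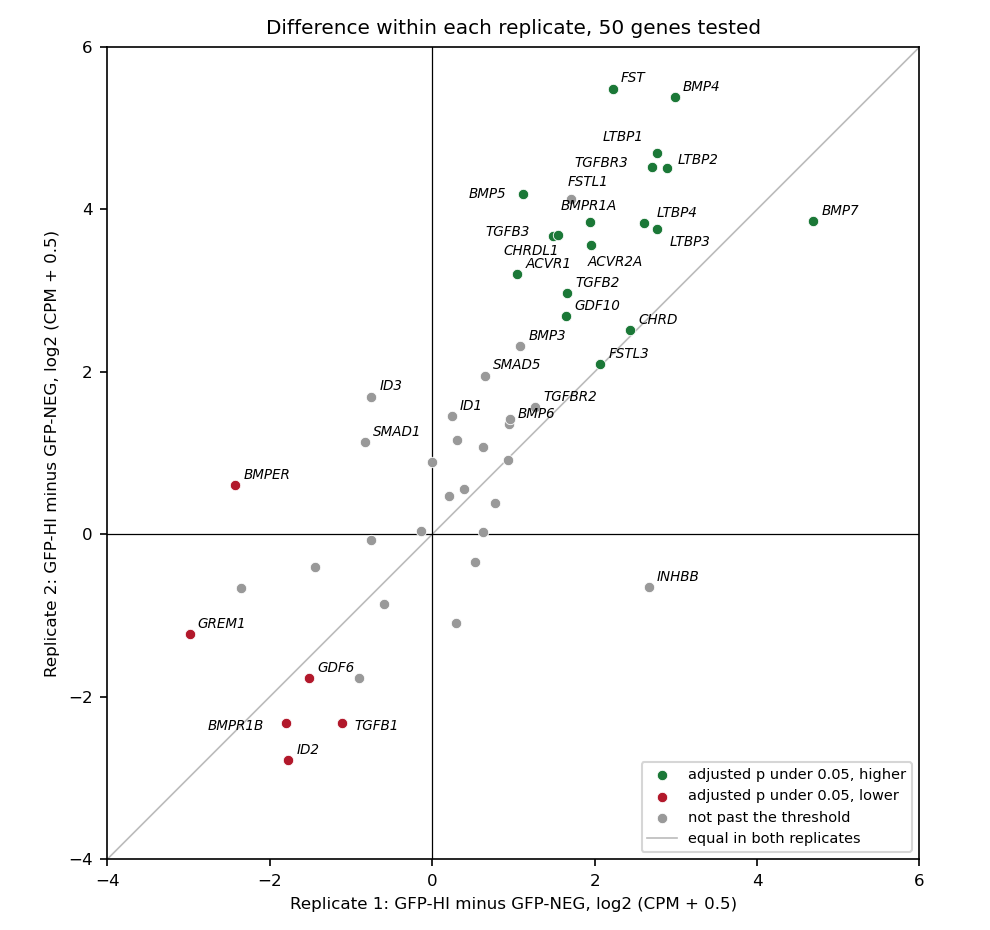
Difference between GFP-HI and GFP-NEG within replicate 1 (x axis) and within replicate 2 (y axis), in log2 of CPM + 0.5, for the 50 genes tested. Of the 18 genes called higher (green), 17 lie above the diagonal and BMP7 below it, and BMPER has opposite signs, -2.43 in replicate 1 and 0.61 in replicate 2.

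The 2 GFP-NEG libraries also differed from each other in the genes higher in GFP-HI. In all 18 higher genes GFP-NEG replicate 1 was above GFP-NEG replicate 2, by a median of 2.00 in log2 of CPM + 0.5. The GFP-HI libraries differed in either direction by a median of 0.45, and by up to 2.02 in FSTL3. The 13 fibroblast markers showed a like gap, with GFP-NEG replicate 1 above replicate 2 in all 13 by a median of 1.73, against -0.11 over all genes tested. Without GFP-NEG replicate 1, all 18 kept their call and BMP3, FSTL1 and ID1 were called higher as well. Without GFP-NEG replicate 2, only BMP4 (log2 fold change 3.53, edgeR adjusted p of 0.011) and BMP7 (4.51, edgeR adjusted p of 9.8e-05) of the 18 kept theirs. All 18 stayed positive, at 1.08 for GDF10 to 4.51 for BMP7. In these fits 1 group is a single library that is assumed to vary like the others, and over all genes only 216 were then called higher, against 1643 with all 4 libraries.

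Leaving out either GFP-HI library ended 4 of the 18 higher calls, against 16 without GFP-NEG replicate 2. GDF10, CHRDL1, FSTL3 and LTBP4 lost their calls without GFP-HI replicate 1, and FSTL3 was then at a log2 fold change of 0.85 and GDF10 at 1.10. BMP5, TGFB3, ACVR1 and CHRDL1 lost theirs without GFP-HI replicate 2. Of the 6 lower genes, GREM1 and ID2 kept their calls when GFP-HI replicate 1 was left out. ID2 and TGFB1 kept theirs without GFP-NEG replicate 1, and GREM1 and BMPER without GFP-NEG replicate 2. All 6 lost theirs when GFP-HI replicate 2 was left out. TGFB1 was at -1.11 without GFP-NEG replicate 2, its highest library.

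**Figure D4:**
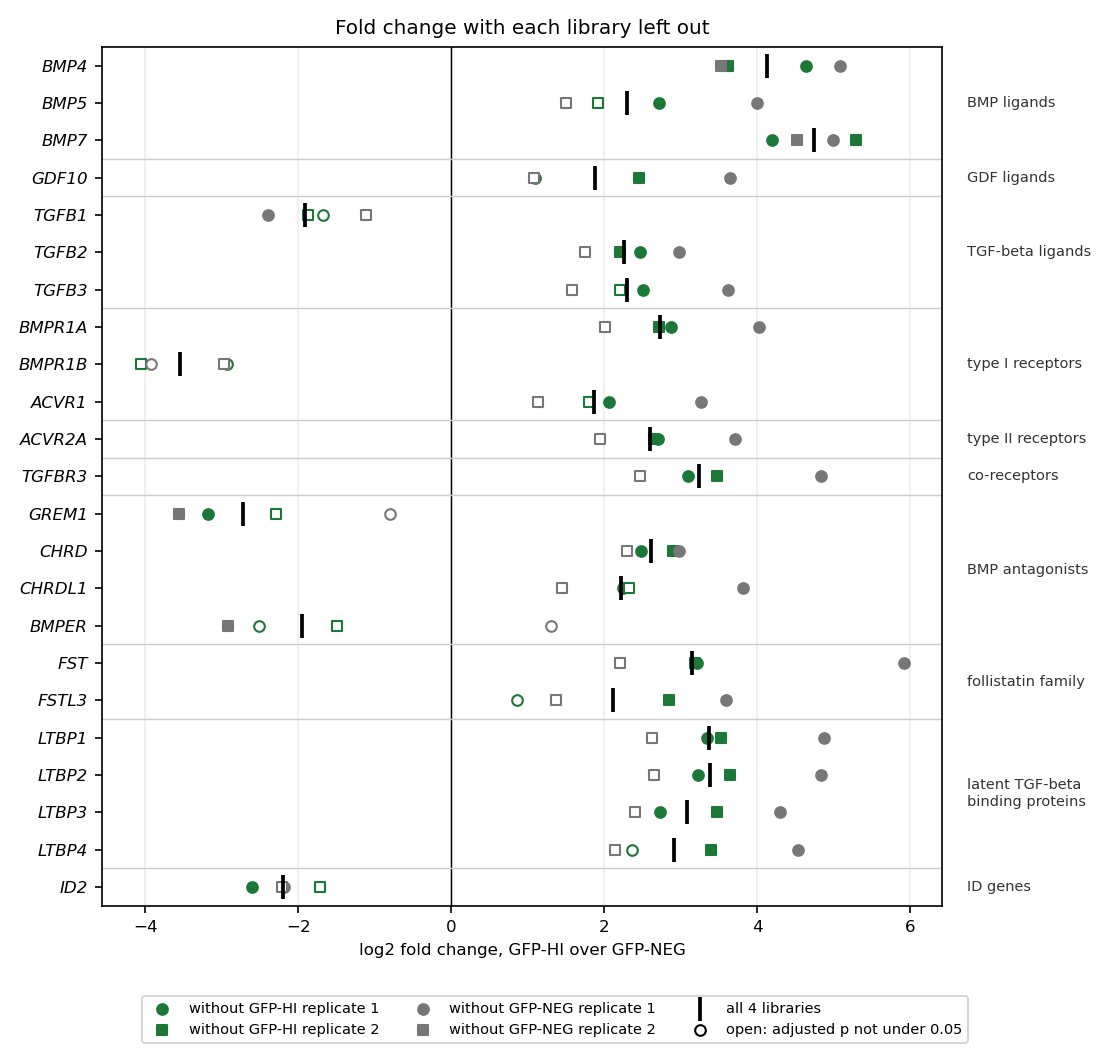
Log2 fold change of 23 called genes with all 4 libraries (black bar) and with each library left out (symbols, open where the edgeR adjusted p was not under 0.05). GDF6 is left out because it had 0 counts in GFP-HI. Without GFP-NEG replicate 2 (grey squares) the higher genes move toward 0 and only BMP4 and BMP7 stay filled, and BMPER crosses to 1.30 without GFP-NEG replicate 1.

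The higher genes were also set against the fibroblast markers of the same library, since both were higher in GFP-HI. The mean log2 level of the 13 markers was 11.21 and 11.45 in the GFP-HI libraries, against 8.97 and 7.07 in GFP-NEG. Relative to this mean, BMP4 was at -2.96 and -2.22 in GFP-HI and at -3.70 and -3.23 in GFP-NEG, so GFP-HI was still above. LTBP1 was at -0.24 and -0.71 in GFP-HI and at -0.77 and -1.02 in GFP-NEG, also above but by little. These were 2 of the 18 genes on this scale, 9 others were below their GFP-NEG values and 7 overlapped. Over all genes tested, 0.213% were above and 97.5% below on this scale. The 7 with overlap were BMP7, TGFBR3, CHRD, FST, LTBP2, LTBP3 and LTBP4. TGFB3 was at -2.83 and -2.80 in GFP-HI against -2.07 and -2.10 in GFP-NEG, and BMP5, TGFB2, BMPR1A, ACVR1, ACVR2A, GDF10, CHRDL1 and FSTL3 were likewise below.

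**Figure D5:**
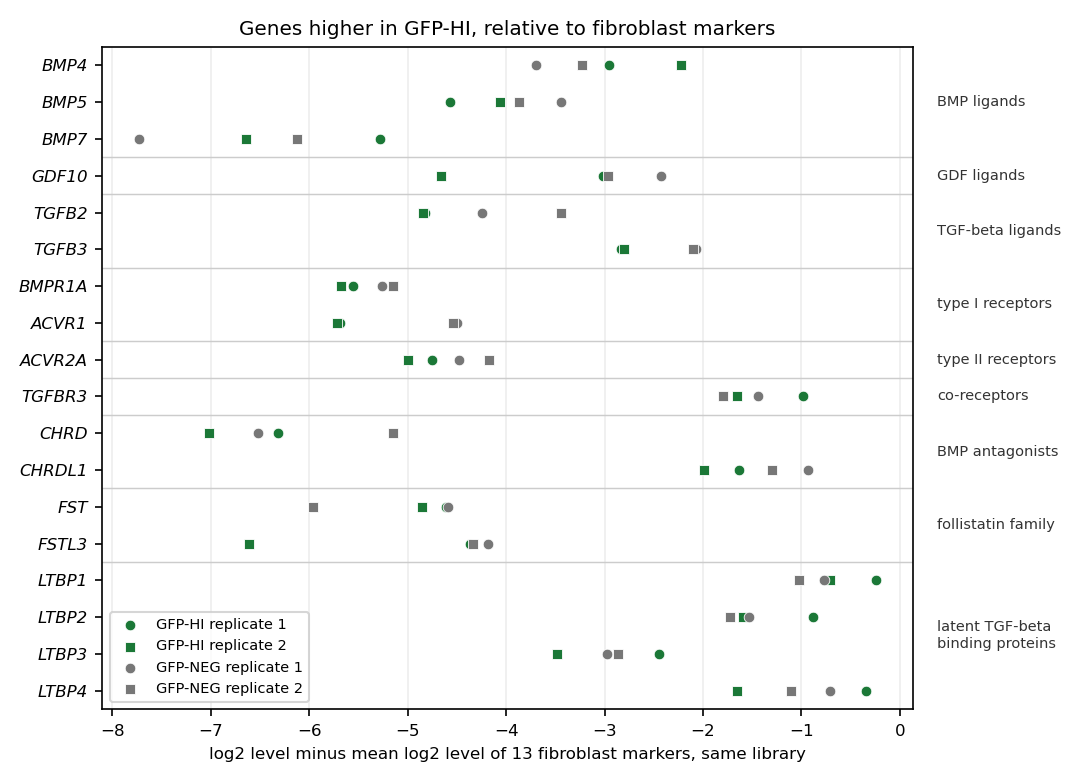
Level of the 18 genes called higher in GFP-HI, as log2 of CPM + 0.5 minus the mean of 13 fibroblast markers in the same library. Green is GFP-HI and grey GFP-NEG. BMP4 and LTBP1 have both green points right of both grey points, and TGFB3 and ACVR1 have both to the left.

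Other genes of the pathways were read from 6 lists that hold 99 genes, of which 77 were tested, with 17 higher and 17 lower in GFP-HI (8.35% and 27.6% over all genes tested). Of 19 tested antagonists and matrix modulators, 10 were higher and 5 lower. The 5 include TLL1 (7 and 5 counts in GFP-HI, 13 and 58 in GFP-NEG) and TLL2 (4 and 6 against 27 and 55). TLL1 and TLL2, like BMP10, DLX3 and SP7 among the 17 lower, passed the filter on low counts only through GFP-NEG. Their calls as lower are therefore descriptions. SOSTDC1, a secreted antagonist of BMP and Wnt signalling, was at 162 and 497 CPM in GFP-HI and at 18.6 and 3.40 CPM in GFP-NEG, for a log2 fold change of 4.91 (SE 0.71, edgeR adjusted p of 1.1e-09). FBN2, a fibrillin of the microfibrils that carry latent TGF-beta and BMPs, was at 188 and 125 CPM against 12.7 and 3.40 CPM (log2 fold change 4.29). ASPN, asporin, a small proteoglycan that binds TGF-beta, was at 486 and 882 CPM against 67.1 and 21.6 CPM (log2 fold change 3.95). NRROS, which tethers latent TGF-beta on myeloid cells, was at 1.54 and 4.51 CPM against 34.3 and 65.4 CPM (log2 fold change -4.04), and the immune markers given above were also higher in GFP-NEG.

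Of 3 tested co-receptors and receptors outside the set, the BMP co-receptors RGMA and RGMB were both higher, with log2 fold changes of 2.42 (SE 0.62) and 1.74 (SE 0.54). RGMA was at 30.0 and 22.7 CPM in GFP-HI and at 4.81 and 5.04 CPM in GFP-NEG, and RGMB at 40.2 and 48.9 CPM against 16.6 and 10.2 CPM. RGMA kept its call with each library left out, and RGMB lost it when either replicate 2 library was left out (edgeR adjusted p of 0.066 without GFP-HI replicate 2 and 0.31 without GFP-NEG replicate 2). Of the 6 tested ligands outside the set, 1 was called, and it was lower. This gene, BMP10, had 0 counts in both GFP-HI libraries and 7 and 65 in GFP-NEG. It passed the filter on low counts only through GFP-NEG.

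Intracellular regulators were mostly uncalled, like the SMADs, with 1 higher and 1 lower of 19, against 8.35% and 27.6% of all genes tested. PMEPA1, a TGF-beta-induced inhibitor of SMAD signalling, was at 445 and 338 CPM in GFP-HI and at 65.8 and 12.1 CPM in GFP-NEG, for a log2 fold change of 3.33 (SE 0.68, edgeR adjusted p of 2.7e-05, or 0.075 without GFP-NEG replicate 2). USP15, a deubiquitinase, was at 76.5 and 65.8 CPM against 295 and 119 CPM. Its call as lower (edgeR adjusted p of 0.029) was lost with the replicate number as a block (edgeR adjusted p of 0.059) and with any 1 library left out.

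Genes listed as responding to TGF-beta included calls in both directions, with 3 higher and 4 lower of 18 tested, against 8.35% and 27.6% of all genes tested. The 18 include LTBR, the lymphotoxin beta receptor, whose place in the list is doubtful and which was not called. TGFBI, a matrix protein named for its induction by TGF-beta, was at 2951 and 1569.9 CPM in GFP-HI and at 237 and 106 CPM in GFP-NEG (log2 fold change 3.72, SE 0.99). LOX, the collagen and elastin crosslinking enzyme, was at 1519.8 and 797 CPM against 232 and 38.6 CPM (log2 fold change 3.10, SE 0.83). CDKN1A, a cell cycle inhibitor, ran the other way, at 26.3 and 27.2 CPM against 186 and 323 CPM (log2 fold change -3.25). SPHK1, a sphingosine kinase, was at 2.85 and 0.991 CPM against 29.3 and 33.9 CPM (log2 fold change -4.03). Immune markers were also higher in GFP-NEG, and their part in the CDKN1A and SPHK1 values was not tested. TGFBI and LOX were not called without GFP-NEG replicate 2, with edgeR adjusted p of 0.066 and 0.20. These genes also respond to other signals.

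Of 12 tested genes known to respond to BMP, 6 were lower and 1 was higher. The 6 include DLX3 (2 and 0 counts in GFP-HI, 10 and 19 in GFP-NEG) and SP7 (0 and 0 against 9 and 37). DLX3 and SP7 were near the lower end of detection and passed the filter on low counts only through GFP-NEG. Over all genes tested, lower calls also outnumbered higher ones, at 27.6% against 8.35%. The list had a median log2 fold change of -1.15 with DLX3 and SP7 included, which could hardly have been called higher. Among the other tested genes of the list, the middle values were those of MSX1 (-0.33) and ALPL (-0.22). The median over all genes tested was -0.25. GATA2, a GATA transcription factor, was the 1 higher, at 251 and 168 CPM in GFP-HI and at 34.8 and 11.9 CPM in GFP-NEG (log2 fold change 3.17, SE 0.61). GATA3, a transcription factor of T cells and other lineages, was at 1.18 and 2.83 CPM against 30.1 and 72.5 CPM (log2 fold change -4.68). RUNX2, a skeletal transcription factor also found in lymphoid cells, was at 0.951 and 3.67 CPM against 12.3 and 28.8 CPM (log2 fold change -3.16). HEY1, a Notch and BMP target known from endothelium, was at 6.30 and 2.68 CPM against 31.4 and 4.28 CPM, and its groups overlapped. Its log2 fold change of -1.98 (edgeR adjusted p of 0.012) was 0.12 without GFP-NEG replicate 1, and the call was also lost without either GFP-HI library and in DESeq2. Immune and endothelial markers were lower in GFP-HI too, and their part in these values was not tested.

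The authors' deposited table of the comparison lists 48 of the 52 genes. At an adjusted p under 0.05 the authors' deposited table has 20 of them higher and 3 lower in GFP-positive cells, where 8.2% and 11.2% of its 16250 genes are higher and lower. Those 20 hold all 18 genes called higher here, plus FSTL1 and TGFBR2, and the 3 lower genes are among the 6 called lower here. GDF6, BMPR1B, INHBA and NOG are not listed in it, and BMPER is listed there without a call.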

How the data were processed

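Lung cells sorted as GFP-HI or GFP-NEG were sequenced in 2 libraries per group. The authors deposited raw counts per gene, one table for each library. Per the submitters' processing notes, featureCounts, Subread 1.5.2 and DESeq2 1.37.6 were used, and aligner, genome build, strand setting and filters are not given in the sources used here. Values of overlapping genes and of near-identical paralogs are therefore uncertain. The authors' deposited comparison table holds a log2 fold change and an adjusted p-value per gene, and its count columns are identical to the single tables. Its 4 columns of normalized values were not used.

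From the 29263 genes, 834 identifiers were renamed with the gene name table. The test was edgeR 4.0.16 (R 4.3.3; glmQLFit and glmQLFTest, TMM scaling, filterByExpr, group as the only term), with Benjamini-Hochberg adjustment over 19682 genes and a threshold of 0.05. The calculation was tried on counts simulated from the test's own fitted dispersion trend. That setting cannot show how well the test suits these 4 libraries. The SE was taken as the absolute log2 fold change over the root of the F statistic. The prior degrees of freedom were infinite, so the SE and p-value of a gene do not measure its own scatter. Differences within a replicate add 0.5 to CPM. The value of 1 count was 0.0453 to 0.0496 CPM in GFP-HI and 0.11 to 0.155 CPM in GFP-NEG. Floors of 3 counts cover counting error only.

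The deposited headings name pig 1 and pig 2 in both fractions. The numbers were taken as pairs in the replicate block and in differences within a replicate. Same-numbered libraries deviated together (correlation 0.18 across genes). With 2 libraries per group, libraries of unlike number then deviate oppositely by construction, so this correlation cannot show pairing by animal. The main fit has group as its only term and does not use the pairs. Those headings are on the unused normalized columns, where some appear to be exchanged between libraries, so the pairing by animal is uncertain. The replicate block is given where it changes a call. Members and lists were chosen with earlier results of these data known. Members called or with a mean of at least 10 CPM are given by library, and from each pathway list up to 4 called genes of that level with the largest fold change. Alternatives were other scalings, filters, DESeq2 1.42.0, the block, thinned counts and leaving out each library. The scale relative to fibroblast markers was chosen after seeing the data. No sequences are shown.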

Additional observations from a re-analysis of the deposited data

How the results depend on the processing

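Of the 18 genes higher in GFP-HI, all 18 kept their call under RLE, upper-quartile and library-size scaling, without a filter on low counts, in DESeq2, with the replicate block and after GFP-HI counts were thinned to the mean depth of GFP-NEG, and 14 did with at least 10 counts required in every library. The replicate block gave 19 higher and 4 lower of the 50, a median of 1.06, 19 higher and 17 lower of the other pathway genes, and 1707 higher and 4793 lower over all genes. It changed no call among the genes named here other than those given beside FSTL1, BMPR1B, BMPER and USP15. Leaving out 1 library gave 2 to 21 higher and 0 to 2 lower genes, medians of 0.75 to 1.48, 6 to 23 higher and 9 to 12 lower other pathway genes, and 216 to 1635 higher and 1575 to 4999 lower genes over all. The lowest counts of higher genes came without GFP-NEG replicate 2, and the 0 lower genes, where 6 are called with all libraries, without GFP-HI replicate 2. With library-size scaling the median was 0.56 over the 50 genes and -0.68 over all genes. Over all genes, 1083 were higher with upper-quartile scaling and 888 with library-size scaling. With at least 10 counts in every library, where fewer genes are tested, 631 were higher and 1490 lower, and 10 other pathway genes were lower. After thinning, 3616 were lower over all genes. Relative to 13 fibroblast markers, 2 of the 50 had GFP-HI apart and above, against 28. SMAD1 turned to -0.21 with upper-quartile scaling, -0.31 with library-size scaling and -0.12 with the stricter count filter. With library-size scaling SMAD2 was at -0.0911 and ID3 at -0.0927. With single libraries left out, SMAD1 ranged from -0.50 to 0.93, ID1 from -0.75 to 2.78, ID3 from -0.40 to 1.44, BMPER from -2.91 to 1.30 and HEY1 from -2.84 to 0.12. The cause of these shifts was not tested. BMPR1B, GDF6, INHBA and NOG had few counts in both groups, with 2 to 32 in GFP-NEG and 0 to 6 in the deeper GFP-HI libraries. GFP-NEG replicates 1 and 2 had 24120 and 25985 genes with a count, against 18752 and 18392 in GFP-HI. What this wider detection in GFP-NEG adds to the calls of lower genes with few counts was not tested.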
